A study of Homo sapiens with 13 samples.

Results

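The 10 chromatin remodeling ATPases followed here, none of them a target of FHD-286, were measured in small cell lung cancer (SCLC) cells. They are the chromodomain helicases CHD1 to CHD9 and the ISWI ATPase SMARCA5. They were taken by gene symbol, and all 10 were among the 56831 genes of each expression table. RNA had been sequenced from H82 and H146, both established SCLC lines whose genotype is given as WT. In each line, cells exposed to FHD-286 at 100 nM for 14 days, with the drug renewed during that time, were set against untreated cells, for which no vehicle is named. H82 (SCLC-N, NEUROD1 subtype) had 3 untreated and 3 treated libraries, and H146 (SCLC-A) had 3 untreated and 4 treated libraries. Each subtype is thus represented by 1 line. Nothing states that the libraries came from separate cultures, so the spread between them may be technical.

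Chromatin remodeling ATPases use ATP to slide, space or evict nucleosomes. FHD-286 inhibits SMARCA4 and SMARCA2, the ATPases of the SWI/SNF complexes. The CHD proteins carry a pair of chromodomains beside the ATPase and fall into groups by their other domains. CHD1 and CHD2 act at actively transcribed genes. CHD3, CHD4 and CHD5 are the alternative ATPases of NuRD, a complex that joins nucleosome remodeling to histone deacetylation. CHD6, CHD7, CHD8 and CHD9 form the remaining group, in which CHD7 and CHD8 are best known from developmental disorders. SMARCA5, also called SNF2H, spaces nucleosomes in ISWI complexes such as ACF, WICH and RSF. CHD5 RNA is best known from neurons, and CHD3, CHD4 and CHD5 replace one another in NuRD as neurons mature.

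The level of CHD3 against that of CHD4 is what the results below turn on, so a start of each of these genes is shown. The windows span 250 bases before to 50 bases after a RefSeq transcript start (GRCh38.p14), 5′ to 3′ on the strand of the gene. The window of CHD3 is chr17:7888539-7888838 on the + strand and that of CHD4 is chr12:6606402-6606701 on the - strand. Capitals mark matches, on either strand, to the GC box GGGCGG, the CCAAT box, the ETS-type motif CCGGAAG and the E-box CAGNTG.
CHD3: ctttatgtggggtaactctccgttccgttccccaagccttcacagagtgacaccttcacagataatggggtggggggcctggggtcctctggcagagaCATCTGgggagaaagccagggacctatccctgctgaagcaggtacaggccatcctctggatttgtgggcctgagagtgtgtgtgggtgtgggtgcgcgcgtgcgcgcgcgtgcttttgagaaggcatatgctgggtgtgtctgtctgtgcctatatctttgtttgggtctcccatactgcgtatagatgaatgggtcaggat
CHD4: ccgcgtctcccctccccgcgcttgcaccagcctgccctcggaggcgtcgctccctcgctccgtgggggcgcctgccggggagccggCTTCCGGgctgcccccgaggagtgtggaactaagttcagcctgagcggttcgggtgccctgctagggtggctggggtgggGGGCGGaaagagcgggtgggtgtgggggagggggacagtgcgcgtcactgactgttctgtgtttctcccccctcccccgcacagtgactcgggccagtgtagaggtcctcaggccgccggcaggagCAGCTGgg
The CHD3 window held only CATCTG, an E-box read on the other strand. The CHD4 window held the GC box, an ETS-type motif on the other strand, read as CTTCCGG, and an E-box, read as CAGCTG, and none of these overlapped. In all 35116 promoter windows of the same length, 45% held the GC box, 34.6% the CCAAT box, 10.3% the ETS-type motif and 49.9% the E-box. GC content was 56% in the CHD3 window and 71.7% in the CHD4 window, beside a median of 58.7% over all windows. Windows were found for 7 of the 10 remodelers, all but CHD5, CHD6 and CHD7. Both printed windows lie inside the span of the gene in GENCODE release 44, so other starts of these genes lie outside them.

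The values are TPM, in which reads are divided by gene length and every library is set to the same sum. The number of reads is not part of them, so no counting interval is given. Untreated H82 had NEUROD1 at 230 ± 5.51 TPM and SYP at 202 ± 9.49 TPM (SD, n = 3), and untreated H146 had NEUROD1 at 0.393 ± 0.13 TPM and SYP at 85.5 ± 7.58 TPM (SD, n = 3). Treated H82 had NEUROD1 at 83.6 ± 32.4 TPM and SYP at 46.8 ± 13.7 TPM (SD, n = 3), and treated H146 had them at 0.317 ± 0.185 and 71.6 ± 10.1 TPM (SD, n = 4). The 6 neuroendocrine markers summed to 994 to 1089 TPM in untreated and 1096 to 1404 TPM in treated H82, and to 3310 to 3784 and 2502 to 2678 TPM in H146. The sum hides a split in H82. Mean CHGA was also lower with treatment, at 32.6 against 143 TPM. Means of the others were higher, UCHL1 at 896 against 412, INSM1 at 121 against 14.4 and NCAM1 at 64.2 against 52.9 TPM. In H146 only NCAM1 had a higher mean with treatment, 55.8 against 51.0 TPM. Summed fibroblast markers held 0.912 to 1.84 TPM in untreated and 6.99 to 32.0 TPM in treated H82, with COL1A2, DCN and LUM higher in every treated library and COL1A1 overlapping. In H146 they held 6.42 to 8.45 TPM untreated and 12.2 to 18.9 TPM treated. Blood cell markers reached at most 21.4 TPM in any library. Genes at 1 TPM or more numbered 15554 to 16633 in treated H82 and 21227 to 21772 in untreated H82. The treated H82 libraries also stood apart from each other. The 10 remodelers summed to 157 TPM in replicate 1, 304 in replicate 2 and 333 in replicate 3, where the untreated libraries held 460 to 481 TPM. Replicate 1 was the lowest treated library for 9 of the 10 genes, so H82 results are also given without it. Replicate 2 held 99.0 TPM of epithelial markers, the other two treated libraries held 16.9 and 9.10 TPM, and the untreated ones held 1.49 to 3.16 TPM. All 5 of these markers were above 0 in treated H82, and FOXA2 was at 0 in untreated H82. In H146 they summed to 1937 to 1983 TPM untreated and 879 to 1089 TPM treated. Mitochondrial genes held 12.3% to 14.9% of the TPM in treated and 22.1% to 24.1% in untreated H82. In H146 they held 3.82% to 11.4% treated and 7.56% to 8.86% untreated. Without mitochondrial genes 8 of the 10 remodelers fell in H82, where 7 fell with them, and their median log2 fold change was -1.14 beside -0.71 for all genes. Of all genes tested in H82, 9914 of 19751 fell without mitochondrial genes and 8996 of 19770 with them. The part of the marker genes in the results was not tested.

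Before treatment, SMARCA5 and CHD4 had the highest levels per length in H82. SMARCA5 averaged 97.9 ± 14.4 TPM and CHD4 92.4 ± 5.98 TPM (SD, n = 3), and their libraries overlapped. CHD7, CHD3 and CHD1 followed at 55.6 to 59.3 TPM on average, each overlapping the next in order. CHD2 and CHD6 overlapped near 30 TPM, CHD8 stood at 24.3 ± 0.0379 TPM, CHD9 at 19.5 ± 2.71 TPM and CHD5 at 1.69 ± 0.303 TPM. In untreated H146, CHD4 led with 104 ± 21.8 TPM and overlapped CHD3 at 72.9 ± 9.90 TPM (SD, n = 3). CHD7, SMARCA5 and CHD6 came next at 31.5 to 41.1 TPM, each overlapping its neighbour. CHD1, CHD5 and CHD8 lay between 9.37 and 11.4 TPM on average with overlapping libraries, and CHD9 was lowest at 4.78 ± 0.599 TPM. With treatment CHD3 became first in order in both lines. In treated H146 its 4 libraries lay above all those of CHD4, while in treated H82 they overlapped SMARCA5, which overlapped CHD4.

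**Figure D1:**
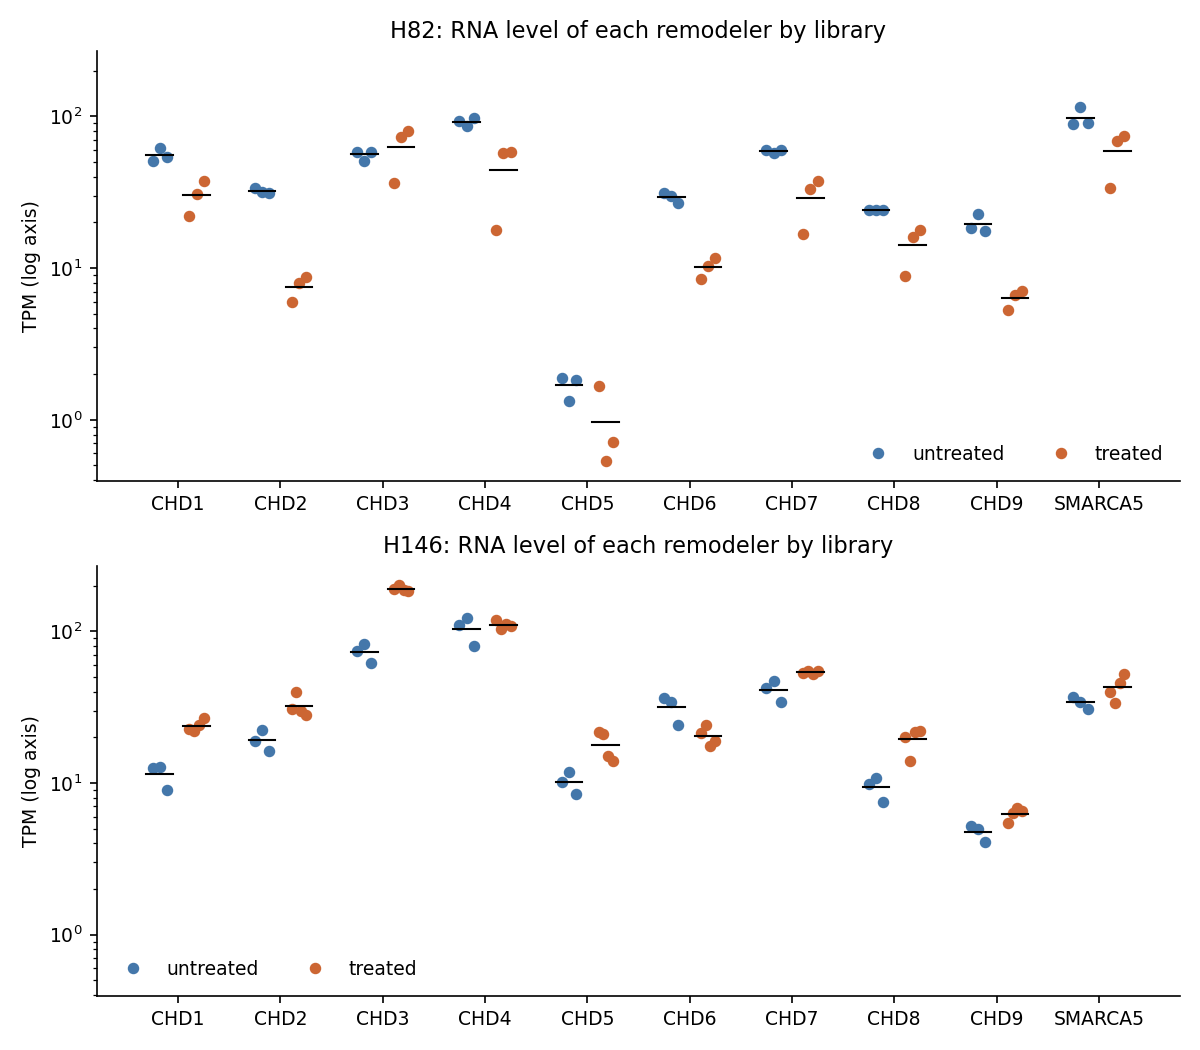
RNA level of each remodeler in every library of H82 (top) and H146 (bottom), in TPM on a log axis. Points are libraries, black bars are group means; CHD3 in H146 went from 72.9 to 191 TPM on average, and CHD2 in H82 from 32.2 to 7.54 TPM.

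The question for each line was whether RNA of these remodelers differed between cells under FHD-286 and untreated cells. In H82, 7 of 10 fell and none rose by limma, with CHD3, CHD5 and SMARCA5 not passing the test. At an unadjusted threshold of 0.05 SMARCA5 would join those that were lower, and none would be higher. In H146, 6 rose (CHD1, CHD2, CHD3, CHD5, CHD7 and CHD8), CHD6 fell, and CHD4, CHD9 and SMARCA5 did not pass. CHD6 was the member that fell in both lines. These calls come from limma on log2(TPM + 1) within each line, two-sided, at an adjusted *p* under 0.05 over all genes tested. Of all genes tested in H82, 45.5% fell and 13.1% rose, and in H146 15.5% fell and 32.5% rose. The median log2 fold change of the 10 was -0.98 in H82, where all genes had -0.56, and 0.56 in H146, where all genes had 0.25. In bulk RNA, a lower level in every cell and a loss from some of the cells cannot be told apart.

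Since the median of all genes was not at 0, the libraries were also scaled by the median of ratios, which moves that median to -0.14 in H82 and -0.02 in H146. Under this scaling 3 remodelers fell in H82 (CHD2, CHD6 and CHD9) and none rose, where 32.9% of all genes fell and 24.2% rose. In H146, CHD6 fell and CHD1, CHD3 and CHD8 rose, where 25.1% of all genes fell and 21.3% rose. The medians of the 10 were then -0.50 and 0.25. Quantile normalization left 7 of 10 lower in H82 (CHD1, CHD2, CHD4, CHD6, CHD7, CHD9 and SMARCA5) and none higher. There 5547 of 19770 genes fell and 5067 rose. Under it CHD6 fell in H146 and CHD1, CHD2, CHD3 and CHD8 rose, where 4107 of 19585 genes fell and 4647 rose. The medians of the 10 were -0.86 and 0.37, beside -0.05 and 0.06 for all genes. Treated and untreated libraries did not overlap for 8 of 10 remodelers in H82, all lower with treatment, where 67.8% of all genes had no overlap. They did not overlap for 8 of 10 in H146 either, 7 higher and 1 lower, where the share of all genes was 52.9%. Without treated replicate 1 of H82, 9 of 10 fell and CHD3 rose, where 9957 of 19058 genes tested fell and 3503 rose. With any 1 untreated H82 library left out, 3 or 4 fell, and CHD4, CHD7 and CHD8 no longer passed. Of the 16364 to 16488 genes then tested, 4291 to 4440 fell and 1676 to 1689 rose.

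**Figure D2:**
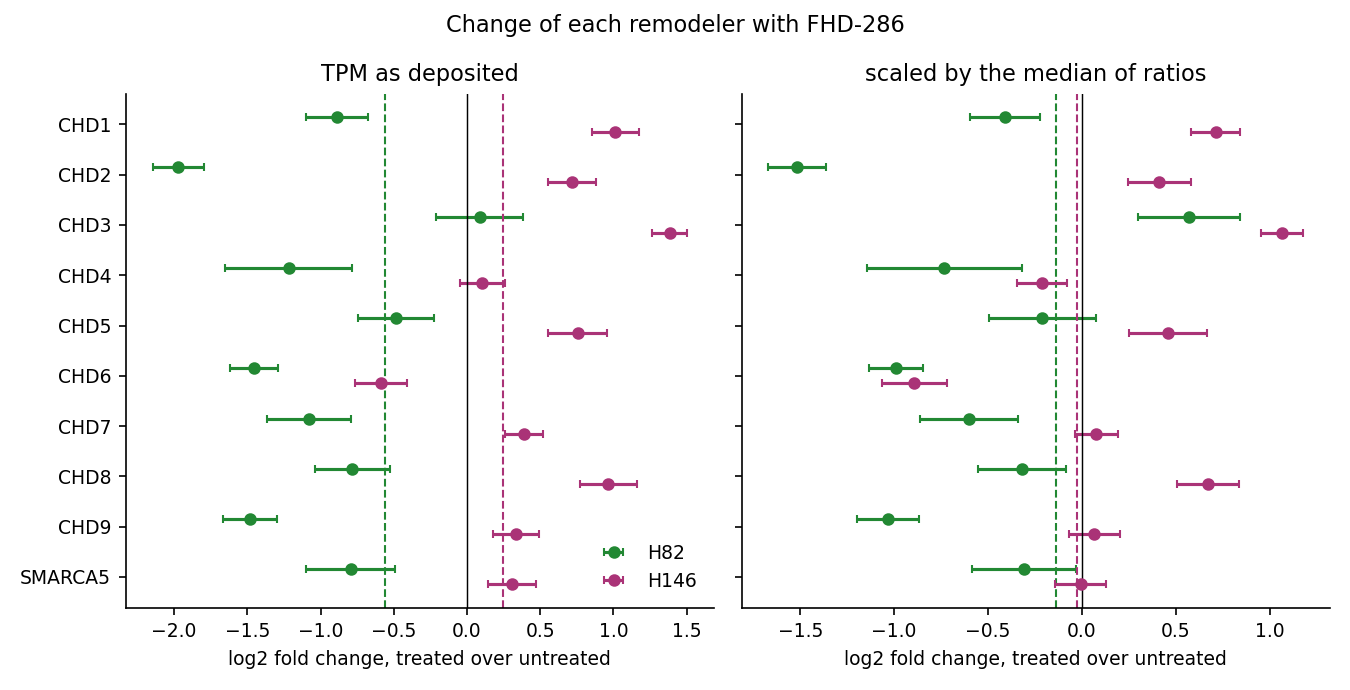
Log2 fold change of TPM + 1 (treated over untreated) of each remodeler in H82 and H146, with TPM as deposited (left) and after scaling by the median of ratios (right). Points are limma estimates, bars are standard errors, and dashed lines are the medians of all tested genes, -0.56 and 0.25 on the left and -0.14 and -0.02 on the right; CHD6 lies below 0 in both lines in both panels.

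CHD2 had the deepest fall of the 10 in H82. This remodeler (chr15:92886203-93027996, + strand, GENCODE release 44) binds at active genes and its loss causes an epileptic encephalopathy. It stood at 33.8, 31.6 and 31.3 TPM in untreated H82 and at 5.97, 7.95 and 8.71 TPM in treated H82, with every treated library far under the untreated ones. The log2 fold change was -1.97 (SE 0.17, adjusted *p* = 0.000244, limma) and -1.52 after the median of ratios (adjusted *p* = 0.000484). Without treated replicate 1 it was -1.83. In H146, CHD2 had 18.8, 22.2 and 16.3 TPM without and 30.8, 40.0, 29.8 and 27.9 TPM with FHD-286, so the groups did not overlap in the opposite direction. The change there was 0.72 (SE 0.16, adjusted *p* = 0.00781, limma), and 0.41 with an adjusted *p* of 0.0758 after the median of ratios. CHD2 shares 121 exon bases with the noncoding RNA CHASERR on the same strand.

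CHD1 (chr5:98853985-98929007, - strand), the closest paralog of CHD2, moved the same way in each line. Its TPM in H82 was 50.5, 62.0 and 54.2 untreated and 22.0, 30.9 and 37.5 treated. The fall of 0.89 on the log2 scale (SE 0.21, adjusted *p* = 0.00993, limma) narrowly missed the threshold without untreated replicate 2 (adjusted *p* = 0.0518). It became -0.41 with an adjusted *p* of 0.1 after the median of ratios. In H146 CHD1 had 12.5, 12.8 and 8.94 TPM untreated and 22.8, 21.9, 23.9 and 26.8 TPM treated. The treated mean was 2.09 times the untreated mean, with a log2 fold change of 1.01 (SE 0.16, adjusted *p* = 0.00135, limma) and 0.71 after the median of ratios (adjusted *p* = 0.00309). The ratio of CHD2 to CHD1 within a library does not depend on scaling. In H82 it was 0.67, 0.509 and 0.578 untreated and 0.271, 0.257 and 0.232 treated, with no overlap. In H146 the ratio was 1.5, 1.74 and 1.82 untreated and 1.35, 1.83, 1.25 and 1.04 treated, and the groups overlapped. The log2 difference was -1.20 in H82 (exact permutation *p* = 0.1, the smallest that 3 against 3 allows) and -0.33 in H146 (exact permutation *p* = 0.2).

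Among the NuRD ATPases, the balance between CHD3 and CHD4 differed in the same direction in both lines. CHD3 (chr17:7884796-7912760, + strand) had 58.6, 51.2 and 58.6 TPM in untreated H82 and 36.2, 73.0 and 79.8 TPM in treated H82. Treated replicate 1 lay under all untreated libraries and the other treated libraries above them, and the change of 0.09 did not pass the test (SE 0.30, adjusted *p* = 0.817, limma). Without that library it was 0.44 (adjusted *p* = 0.00699), and its sign turned in 3 alternatives, at -0.07 without mitochondrial genes, -0.06 without treated replicate 2 and -0.12 without treated replicate 3. In H146, CHD3 stood at 74.5, 81.8 and 62.2 TPM untreated and at 189, 201, 187 and 185 TPM treated. That was the highest rise of the 10 in this line, 1.38 on the log2 scale (SE 0.12, adjusted *p* = 8.39e-05, limma) and 1.07 after the median of ratios (adjusted *p* = 0.000213).

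CHD4 (chr12:6570082-6614524, - strand) is the main NuRD ATPase of most dividing cells. In H82 it had 93.1, 86.0 and 97.9 TPM untreated and 17.7, 57.4 and 58.2 TPM treated, and again replicate 1 was far under the other treated libraries. The fall of 1.22 on the log2 scale (SE 0.43, adjusted *p* = 0.0459, limma) was -0.67 without that library (adjusted *p* = 0.00082). After the median of ratios it was -0.73 and did not pass (adjusted *p* = 0.169). In H146 CHD4 ranged from 80.2 to 123 TPM untreated and from 104 to 119 TPM treated, with overlap. Its change was 0.10 (SE 0.15, adjusted *p* = 0.602, limma), and -0.21 after the median of ratios (adjusted *p* = 0.22). CHD4 shares 5964 exon bases with a same-strand protein-coding model and 1295 with a noncoding RNA on the other strand, and whether counting used strand is not stated.

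The CHD3 to CHD4 ratio was 0.63, 0.595 and 0.598 in untreated H82 and 2.05, 1.27 and 1.37 in treated H82. In H146 it was 0.681, 0.666 and 0.776 untreated and 1.58, 1.94, 1.69 and 1.72 treated. Every untreated library thus held less CHD3 than CHD4 RNA per length and every treated library held more. The geometric mean of the ratio was 2.52 times as high with treatment in H82 (log2 difference 1.33, exact permutation *p* = 0.1) and 2.45 times as high in H146 (1.29, exact permutation *p* = 0.0286). These are the smallest *p* values that the groups allow, and after adjustment over the 8 ratio tests they were 0.133 and 0.114, above the threshold. Without treated replicate 1 the H82 log2 difference was 1.12. As a share of the summed TPM of CHD3, CHD4 and CHD5, CHD3 held 36.9% to 38.2% in untreated and 55.8% to 65.2% in treated H82. The range in H146 was 37.8% to 41.3% untreated and 57.3% to 61.7% treated.

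CHD5 (chr1:6101787-6180321, - strand), the neuronal NuRD ATPase, was the least abundant remodeler in H82. It had 1.88, 1.34 and 1.84 TPM untreated and 1.67, 0.533 and 0.709 TPM treated, with replicate 1 inside the untreated range. The change was -0.48 (SE 0.26, adjusted *p* = 0.152, limma), -0.72 without replicate 1 (adjusted *p* = 0.0232) and 0.45 under quantile normalization (adjusted *p* = 0.143), so its direction depended on the scaling. In H146 CHD5 had 10.1, 11.8 and 8.41 TPM untreated and 21.6, 21.0, 15.1 and 13.9 TPM treated, with no overlap. It rose by 0.75 on the log2 scale (SE 0.20, adjusted *p* = 0.0143, limma), and by 0.46 with an adjusted *p* of 0.102 after the median of ratios. Without untreated replicate 3 it was 0.64 (adjusted *p* = 0.0627). The CHD5 to CHD4 ratio in H146 went from 0.0922, 0.0962 and 0.105 to 0.181, 0.203, 0.136 and 0.129 (log2 difference 0.71, exact permutation *p* = 0.0571, adjusted *p* = 0.133). In H82 replicate 1 had a ratio of 0.0942, the other treated libraries 0.0093 and 0.0122, and the untreated ones 0.0155 to 0.0202. The H82 log2 difference of 0.28 turned to -0.76 without replicate 1, so no direction can be read from it.

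**Figure D3:**
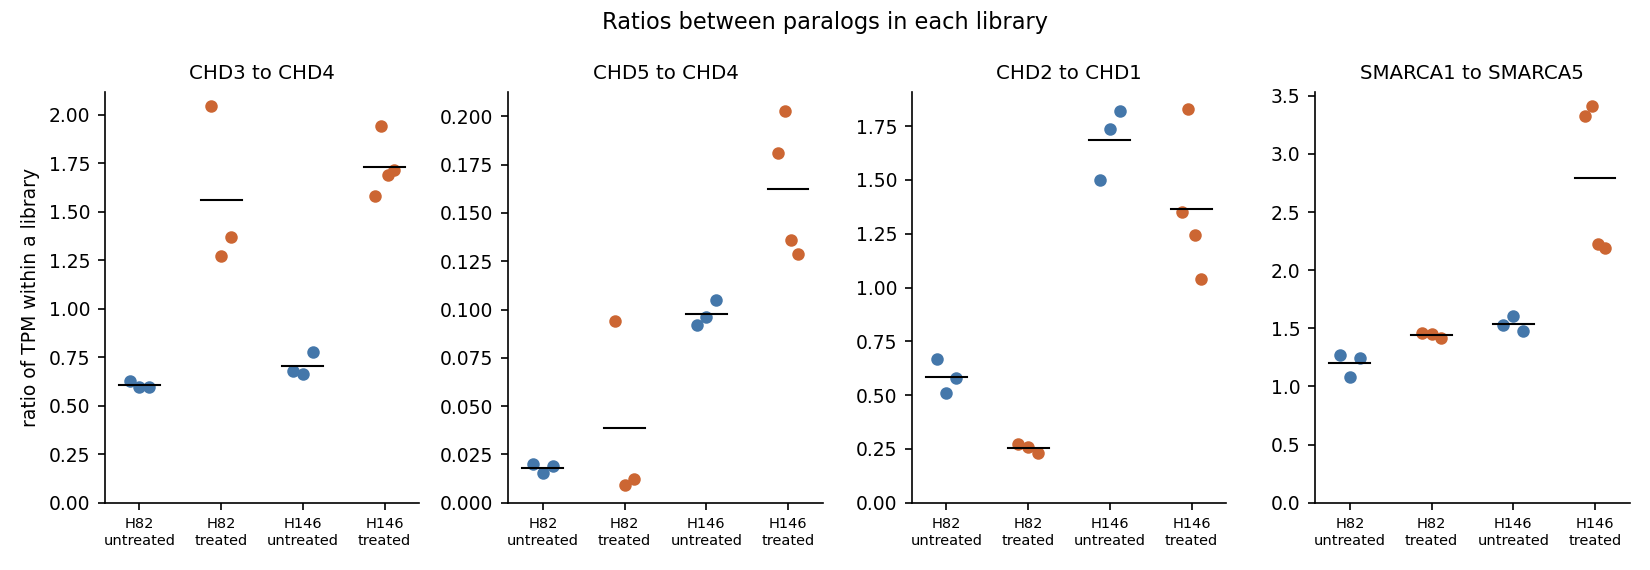
Ratios of TPM between paralogs within each library, for untreated and treated H82 and H146; points are libraries and bars are arithmetic group means, on linear axes from 0. The CHD3 to CHD4 ratio is at most 0.776 in untreated and at least 1.27 in treated libraries of both lines, whereas the CHD2 to CHD1 ratio separates the groups in H82 and overlaps in H146.

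CHD6 (chr20:41402083-41618384, - strand), a remodeler linked to the oxidative stress response, fell in both lines. Its TPM in H82 was 31.4, 30.0 and 26.9 untreated and 8.53, 10.4 and 11.6 treated, a fall of 1.45 on the log2 scale (SE 0.17, adjusted *p* = 0.00052, limma). In H146 it was 36.1, 34.2 and 24.1 untreated and 21.5, 24.0, 17.6 and 18.9 treated. The groups did not overlap, although the highest treated and the lowest untreated library of H146 nearly met. The fall of 0.59 in H146 (SE 0.18, adjusted *p* = 0.0249, limma) no longer passed without untreated replicate 1 or 2 or treated replicate 3 or 4 (adjusted *p* = 0.053 to 0.107). After the median of ratios CHD6 stood at -0.99 in H82 (adjusted *p* = 0.00161) and -0.89 in H146 (adjusted *p* = 0.00401).

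CHD9 (chr16:53054991-53329150, + strand), known as a nuclear receptor coactivator, had 18.2, 22.6 and 17.7 TPM in untreated H82 and 5.33, 6.61 and 7.10 TPM in treated H82. The fall of 1.48 on the log2 scale (SE 0.18, adjusted *p* = 0.0007, limma) was -1.03 after the median of ratios (adjusted *p* = 0.00229). In H146 CHD9 had 5.24, 5.01 and 4.11 TPM untreated and 5.46, 6.32, 6.87 and 6.51 TPM treated. The treated libraries were all higher, but the difference of 0.34 did not pass the test (SE 0.16, adjusted *p* = 0.107, limma).

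CHD7 (chr8:60678740-60868028, + strand) acts in neural crest and progenitor cells, and its mutation causes CHARGE syndrome. In H82 it was even among untreated libraries at 60.3, 57.7 and 59.8 TPM and stood at 16.8, 33.1 and 37.3 TPM with treatment. It fell by 1.08 on the log2 scale (SE 0.29, adjusted *p* = 0.0153, limma), by 0.74 without replicate 1, and by 0.60 with an adjusted *p* of 0.0891 after the median of ratios. In H146 the untreated values were 42.3, 46.8 and 34.1 TPM and the treated values 53.4, 54.7, 52.0 and 54.9 TPM. The rise of 0.39 (SE 0.13, adjusted *p* = 0.0351, limma) was 0.08 after the median of ratios (adjusted *p* = 0.601). It also missed the threshold without untreated replicate 1 or 3 or treated replicate 1, 3 or 4, at 0.27 to 0.42.

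CHD8 (chr14:21385194-21456126, - strand), a repressor of beta-catenin targets and an autism risk gene, had 24.3, 24.3 and 24.3 TPM in untreated H82. The treated libraries had 8.85, 16.1 and 17.8 TPM, all lower. The fall of 0.78 on the log2 scale (SE 0.26, adjusted *p* = 0.0333, limma) was -0.50 without replicate 1 (adjusted *p* = 0.00484). After the median of ratios it was -0.32 and did not pass (adjusted *p* = 0.277). In H146 CHD8 had 9.77, 10.8 and 7.55 TPM untreated and 19.96, 13.9, 21.6 and 21.9 TPM treated. The groups did not overlap, with treated replicate 2 nearest to the untreated ones. The rise of 0.97 on the log2 scale (SE 0.20, adjusted *p* = 0.00462, limma) was 0.67 after the median of ratios (adjusted *p* = 0.0118).

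SMARCA5 (chr4:143513702-143557486, + strand) had 88.5, 115 and 90.7 TPM in untreated H82 and 33.9, 68.6 and 74.2 TPM in treated H82. All treated libraries were lower, yet the change of -0.79 did not pass the test (SE 0.30, adjusted *p* = 0.0583, limma). Without treated replicate 1 it was -0.44 (adjusted *p* = 0.0216). In H146 the TPM was 36.9, 34.3 and 30.9 untreated and 39.7, 33.6, 45.4 and 52.3 treated, with overlap. The change of 0.31 did not pass (SE 0.16, adjusted *p* = 0.15, limma) and was -0.01 after the median of ratios. SMARCA5 shares 400 exon bases with the antisense RNA SMARCA5-AS1.

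SMARCA1, the other ISWI ATPase, averaged 116 ± 6.56 TPM before and 84.5 ± 30.6 under FHD-286 in H82 (SD, n = 3 and 3), a change of -0.53 that did not pass (adjusted *p* = 0.154, limma). Treated replicate 1 held 49.3 TPM and the other treated libraries 99.3 and 105 TPM, and without it the change was -0.19 (adjusted *p* = 0.0702). The change was -0.04 after the median of ratios (adjusted *p* = 0.899) and -0.63 under quantile normalization, where it passed (adjusted *p* = 0.0231). In H146 SMARCA1 rose, with 52.3 ± 5.75 TPM untreated and 116 ± 12.9 treated (SD, n = 3 and 4), by 1.13 on the log2 scale (SE 0.13, adjusted *p* = 0.000333, limma). The ratio of SMARCA1 to SMARCA5 was higher in every treated library of each line. It went from 1.27, 1.08 and 1.24 to 1.46, 1.45 and 1.41 in H82 (log2 difference 0.27, exact permutation *p* = 0.1, adjusted *p* = 0.133). In H146 it went from 1.52, 1.60 and 1.48 to 3.33, 3.42, 2.22 and 2.19 (log2 difference 0.83, exact permutation *p* = 0.0286, adjusted *p* = 0.114).

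All 13 libraries entered 1 further fit, whose interaction term asked whether the 2 lines responded differently. With TPM as deposited, the change of all 10 remodelers was lower in H82 than in H146 and passed the test. Of all genes, 58.3% differed in either direction, and the median difference of all genes was -0.65. The gap was widest for CHD2, at -2.69 (SE 0.24, adjusted *p* = 3.6e-06, limma), followed by CHD1 at -1.90 (SE 0.26, adjusted *p* = 7.35e-05) and CHD9 at -1.82 (SE 0.23, adjusted *p* = 3.4e-05). CHD6, which fell in both lines, had the narrowest gap at -0.87 (SE 0.25, adjusted *p* = 0.00889). After the median of ratios 4 of 10 still differed, CHD1 at -1.12, CHD2 at -1.93, CHD8 at -0.99 and CHD9 at -1.10, where 55.2% of all genes differed. CHD6 then differed by -0.10 (adjusted *p* = 0.739) and CHD3 by -0.50 (adjusted *p* = 0.166).

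The genes that work with these ATPases were read in the same fits. Of 12 NuRD partner subunits, 2 fell and 2 rose in H82. Their median there was 0.07 on the log2 scale, beside -0.56 for all genes. Under quantile normalization 2 fell and 3 rose, and the median was -0.01 beside -0.05 for all genes. After the median of ratios 1 fell and 6 rose, beside 32.9% and 24.2% of all genes. With treated replicate 1 left out, 2 fell and 6 rose, where 9957 of 19058 genes fell and 3503 rose. In H146 3 fell and 2 rose, with a median of 0.20 beside 0.25. After the median of ratios 4 fell and none rose there, beside 25.1% and 21.3% of all genes. With TPM as deposited, 45.5% of all genes fell and 13.1% rose in H82, and 15.5% fell and 32.5% rose in H146. CDK2AP1 rose in both lines, by 1.22 in H82 (SE 0.36, adjusted *p* = 0.0225, limma) and 1.03 in H146 (SE 0.31, adjusted *p* = 0.025), though after the median of ratios its adjusted *p* in H146 was 0.0661. Treated H82 replicate 1 held 25.2 TPM of it, replicates 2 and 3 held 68.8 and 57.1, and untreated H82 averaged 19.5 ± 2.17 (SD, n = 3). In H146 CDK2AP1 had 12.2, 15.6 and 12.2 TPM untreated and 22.5, 16.5, 40.1 and 40.9 TPM treated. Treated replicate 2 thus nearly met the highest untreated library. GATAD2B, which links the histone-binding and remodeling parts of NuRD, fell in both lines. It averaged 38.2 ± 0.316 TPM untreated and 17.4 ± 1.34 treated in H82 (SD, n = 3 and 3), with 32.4 ± 2.18 and 20.3 ± 3.39 TPM as the H146 values (SD, n = 3 and 4). Its adjusted *p* was 0.00064 and 0.00712 (limma), and it fell after the median of ratios too (adjusted *p* = 0.00417 and 0.0016).

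The ISWI list held SMARCA1 beside the partner subunits of the ISWI ATPases. Of its genes, 6 of 10 tested fell and none rose in H82, beside 45.5% and 13.1% of all genes. In H146 5 of 11 rose, SMARCA1 among them, and none fell, beside 32.5% and 15.5% of all genes. After the median of ratios 5 fell in H82, beside 32.9% of all genes, and 2 rose in H146, beside 21.3%. C17orf49 was below the filter in H82. BAZ2B, a bromodomain subunit, had the deepest fall in H82, with 16.2 ± 1.27 TPM untreated and 3.85 ± 0.574 treated (SD, n = 3 and 3; -1.83, SE 0.18, adjusted *p* = 0.000306, limma). SMARCA1 itself had the highest rise of the list in H146. Of 16 other ATPases of the SNF2 type, 12 fell and 1 rose in H82, beside 45.5% and 13.1% of all genes. In H146 1 fell and 8 rose, beside 15.5% and 32.5% of all genes. After the median of ratios 9 fell and 2 rose in H82, beside 32.9% and 24.2% of all genes. Under that scaling 3 fell and 3 rose in H146, beside 25.1% and 21.3% of all genes. With TPM as deposited, their medians were -0.91 and 0.50, beside -0.98 and 0.56 for the CHD and ISWI remodelers. BTAF1, which removes TBP from DNA, fell by 2.28 in H82 on the log2 scale, and the annealing helicase SMARCAL1 rose there by 0.46. In H146 RAD54L2 rose by 0.83, and RAD54L, a recombination factor, fell by 0.43.

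**Figure D4:**
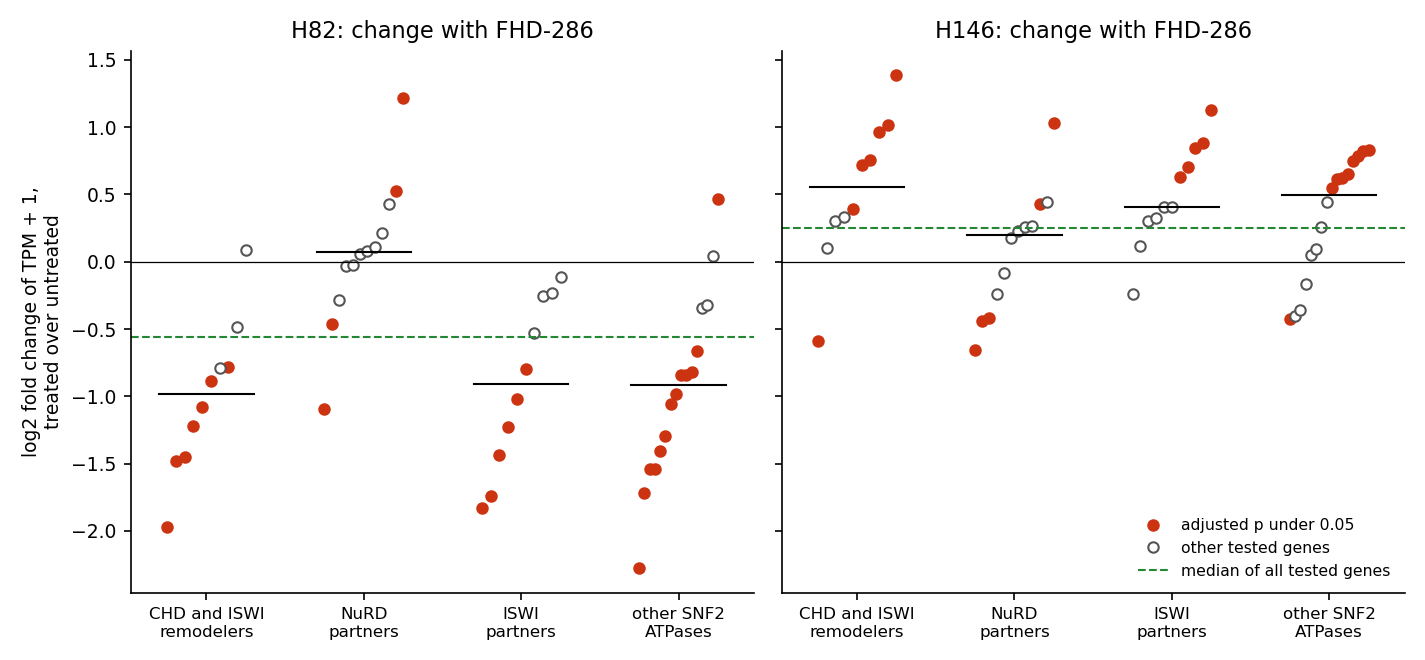
Log2 fold change (treated over untreated, TPM + 1) of each tested gene in the CHD and ISWI remodelers, NuRD partners, ISWI partners (with SMARCA1) and other SNF2-type ATPases, in H82 (left) and H146 (right). Filled points passed an adjusted *p* of 0.05, black bars are list medians and the dashed line is the median of all tested genes. In H82, with TPM as deposited, the NuRD partner median of 0.07 lies above that line at -0.56. The other list medians lie below it there. Under quantile normalization, not shown, the NuRD partner median in H82 was -0.01 beside -0.05 for all genes.

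The ATPases that FHD-286 inhibits were read in the same fits. SMARCA4 averaged 74.0 ± 10.5 TPM untreated and 83.2 ± 28.6 TPM treated in H82 (SD, n = 3 and 3), and 99.4 ± 9.94 and 166 ± 9.07 TPM in H146 (SD, n = 3 and 4). Its change was 0.11 in H82 (adjusted *p* = 0.752, limma) and 0.73 in H146 (adjusted *p* = 0.00122). Treated H82 replicate 1 held 50.97 TPM of SMARCA4 and the other treated libraries 93.0 and 106 TPM. Without replicate 1 SMARCA4 rose by 0.43 (adjusted *p* = 0.0311), and without mitochondrial genes its change was -0.04 (adjusted *p* = 0.909). SMARCA2 had 5.28 ± 0.492 and 4.35 ± 0.855 TPM in the H82 groups (adjusted *p* = 0.336), and fell in H146, where it had 13.9 ± 1.95 and 8.16 ± 0.697 TPM (adjusted *p* = 0.00597). In H82 ADNP, a partner of CHD4 in the ChAHP complex, fell by 1.16 log2 units (adjusted *p* = 0.00255) and rose in H146 by 0.65 (adjusted *p* = 0.0298), where 0.34 remained after the median of ratios (adjusted *p* = 0.14). The noncoding RNA CHASERR beside CHD2, formerly named LINC01578, was not analysed here.

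CHD5 was set beside the 23675 other genes that passed the filter in either line. Pearson correlation was taken on log2(TPM + 1) over the 13 libraries after the mean of each line was taken away. The 5 genes most like it were AC012358.4 (r = 0.976), CTD-3222D19.12 (r = 0.966), RP11-27M15.1 (r = 0.962), ANKRD53 (r = 0.961) and ALOX12 (r = 0.96). Each had a negative estimate in H82, from -0.51 to -1.36, and a positive one in H146, from 0.81 to 2.11. The treatment difference was left in the values, so sharing the direction of CHD5 follows from how these genes were picked. The points share libraries and treatment groups, and no *p* is given.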

How the data were processed

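RNA-seq libraries of H82 and H146 were analysed from the TPM tables that the authors deposited, 1 per line. The authors used STAR for alignment (hg38) and for gene counts (GENCODE release 28), and compared groups with DESeq2. The submitters' processing notes for these samples also name Trim Galore 0.4.4, without its role. How gene length entered the TPM is not stated. Groups and replicate numbers came from the sample labels. Reads per library are unknown, so precision rests on the spread between libraries.

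Within each line, log2(TPM + 1) was fitted with limma 3.58.1 (R 4.3.3; lmFit, eBayes with a trend, two-sided, Benjamini-Hochberg) over genes that reached 1 TPM in 3 or more libraries. Fold changes on this scale understate those of low genes. The interaction of line and treatment used all 13 libraries, in genes passing that filter in each line. Paralog ratios were compared by two-sided exact permutation tests, adjusted over 8 tests. All 10 remodelers passed the filter in both lines. The fit was tested on simulated data first. Other genes named are the drug targets, SMARCA1, ADNP, the largest called rise and fall per list and line, and the 5 genes most like CHD5. Members and lists were chosen with earlier results of these data known. Positions are from GENCODE release 44 and promoters from RefSeq GRCh38.p14. Alternatives were other pseudocounts, filters, scalings and variance models, library weights, a replicate block, each library left out and, added after seeing the data, an adjustment for exon length. Python 3.11.15 with pandas 2.3.3, numpy 2.4.6, scipy 1.17.1 and matplotlib 3.10.9 was used. ATAC-seq and ChIP-seq were not analysed here.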

Additional observations from a re-analysis of the deposited data

Results flagged for a closer look

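The response of every remodeler differed between the lines by the interaction test over 13 libraries (limma, adjusted *p* under 0.05, TPM as deposited), which is why all 10 are listed. The log2 change in H82 minus that in H146 was -1.90 for CHD1, -2.69 for CHD2, -1.30 for CHD3, -1.32 for CHD4 and -1.24 for CHD5. It was -0.87 for CHD6, -1.47 for CHD7, -1.75 for CHD8, -1.82 for CHD9 and -1.10 for SMARCA5. The median of all genes tested was -0.65 on the same scale, and 58.3% of them differed. After the median of ratios only CHD1, CHD2, CHD8 and CHD9 still differed, where 55.2% of all genes did. Under quantile normalization CHD5 (adjusted *p* = 0.892, limma) and CHD6 (adjusted *p* = 0.425) did not pass. No library of treated H146, the only group of 4, was called by a test for a single outlier in any of the 10. That test cannot see pairs of libraries that lie apart from each other. CHD5 held 21.6 and 21.0 TPM in treated replicates 1 and 2, and 15.1 and 13.9 TPM in 3 and 4. SMARCA5 held 39.7 and 33.6 TPM in replicates 1 and 2, and 45.4 and 52.3 TPM in 3 and 4. For CHD4 and CHD7 these pairs overlapped. Whether the pairs differ was not tested.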

How the results depend on the processing

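Scaling by the median of ratios moved the most results. It gave 3 remodelers lower in H82, 3 higher in H146, a median of 0.25 in H146 and 4 differing between lines. For NuRD partners it gave 1 gene lower and 6 higher in H82 and 0 higher in H146. It gave 2 ISWI genes higher in H146, and 2 other ATPases higher in H82 and 3 higher and 3 lower in H146. Of all genes it gave 32.9% lower and 24.2% higher in H82, and 25.1% lower and 21.3% higher in H146. The remodelers' median in H146 was 0.37 under quantile normalization, 0.45 with library weights and 0.51 adjusted for exon length. Quantile normalization gave 1 NuRD gene and 4 other ATPases higher and 3 other ATPases lower in H146, where 4647 of 19585 genes were higher and 4107 lower. It turned SMARCA2 in H82 to 0.66. Adjusting for exon length gave 4 remodelers and 1 NuRD gene lower in H82 and 3 other ATPases lower in H146. Of all genes it gave 5038 of 13592 lower in H82 and 2449 of 13975 lower in H146. Library weights gave 9 remodelers lower, and 1 remodeler (CHD3) and 6 NuRD genes higher, in H82. There 10478 of 19770 genes were lower and 3975 higher. In H146 they gave 6 NuRD and 8 ISWI genes higher and 1 ISWI gene and 4 other ATPases lower. There 9151 of 19585 genes were higher and 4806 lower. With no filter, 0 other ATPases were higher in H82, where 2449 of 37980 genes were. In H146 1 NuRD gene, 3 ISWI genes and 5 other ATPases were then higher and 0 other ATPases lower. There 5803 of 40184 genes were higher and 3042 lower. Without mitochondrial genes, and without the trend, 0 other ATPases were higher in H82, where 2108 of 19751 and 2510 of 19770 genes were. Without the trend 0 were lower in H146, where 2956 of 19585 genes were. The cause of these shifts was not tested.

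Same-numbered libraries did not deviate together (r from -0.111 to 0.027). Noise of single libraries could hide a shared origin, so whether the numbers pair them is not settled. With a replicate block, 8 remodelers were lower in H82 (SMARCA5 in H82 had an adjusted *p* of 0.0342 from limma), and the median in H146 was 0.58, where the fourth treated library has no partner and drops out. The block gave 1 NuRD gene lower, 1 higher and 0 other ATPases higher in H82. In H146 it gave 1 NuRD gene lower, 0 higher, 3 ISWI genes higher, and 3 other ATPases higher and 0 lower. With the block 8625 of 19770 genes were lower and 2333 higher in H82. Of 19585 genes in H146, 2377 were lower and 4749 higher.

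With each library left out, remodelers lower in H82 numbered 3 to 9 and higher 0 to 1, with a median of -1.17 to -0.71. In H146 the lower ones numbered 0 to 1 and the higher ones 4 to 7, with a median of 0.44 to 0.66, and 9 to 10 differed between lines. Of 16364 to 19237 genes tested in H82, 4291 to 9957 were lower and 1676 to 3503 higher. Of 18859 to 19053 tested in H146, 1812 to 3729 were lower and 4287 to 7480 higher. NuRD genes lower and higher numbered 1 to 2 and 0 to 6 in H82, and 1 to 3 and 0 to 3 in H146. ISWI genes higher in H146 numbered 2 to 7, and other ATPases higher 0 to 1 in H82, lower 0 to 2 and higher 3 to 9 in H146. The CHD5 to CHD4 log2 ratio in H82 ran from -0.76 (without treated replicate 1) to 0.91. The other ratios kept their direction in all libraries left out.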
